A study of Rattus norvegicus with 3 samples.

Results

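The 31 nuclear hormone receptor genes printed on a spotted oligonucleotide array were followed in rat liver, in 2 strains and at 2 ages. They were all gene accessions whose symbol in the scanner files begins as a member of the Ppar, Rxr, Rar, Esr, Thr, Hnf4, Vdr or Pgr families, or has the systematic form Nr, digit, letter, digit. One symbol of that form is left out by the rule and is not analysed here. The 31 accessions, each printed on 2 spots, are 62 of 11394 gene spots and 31 of 5690 accessions. Pgrmc1, a membrane-associated progesterone receptor component, was taken by its first letters alone. It is no member of the receptor superfamily and is described apart. The other 30 were 11 metabolic receptors, 3 steroid receptors, 4 receptors for thyroid hormone, retinoic acid or vitamin D, and 12 orphan receptors.

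The animals were males of the spontaneously hypertensive rat (SHR), an inbred strain that develops high blood pressure, and of its normotensive relative, the Wistar Kyoto rat (WKY). No other treatment or allele is given in the labels. The first array compared the livers of 1-month SHR with pooled 1-month WKY, and the second did so with both strains at 3 months. The third, called the age array, compared 1-month with 3-month SHR. The labels do not say how many animals gave each RNA. With 1 array per comparison there is no replicate, so no p-value was computed. With no dye swap, strain on the strain arrays and age on the age array cannot be told apart from the dye.

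Nuclear receptors are transcription factors that bind DNA through zinc fingers and change the rate of transcription when a small fat-soluble ligand fills their ligand pocket. Many bind as pairs with a retinoid X receptor to copies of a short half-site, spelled AGGTCA in its ideal form, and exchange corepressors for coactivators when the ligand binds. In the liver the metabolic receptors sense fatty acids, oxysterols, bile acids and drugs, and set the enzymes and transporters that handle them. The steroid receptors bind sex hormones, and the orphan receptors include regulators of bile acid synthesis, of the daily clock and of the response to acute stimuli.

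Each value below is the log2 ratio of the second over the first channel of an array, after background correction with an offset of 50 and loess normalization, averaged over the 2 spots. It is positive where SHR was higher on both strain arrays. For the age array the second column is headed SHR of 3 months in the file, while the dyes in the labels would place SHR of 1 month there. Its direction is not settled, and its values are given as second over first column: higher at 3 months by the headers, higher at 1 month by the dyes. The error given is the SD of the 2 spots, which covers printing and scanning only. Pooled over accessions it was 0.056, 0.046 and 0.052 on the 1-month, 3-month and age arrays, against an SD of 0.23, 0.22 and 0.33 over all accessions. Intensities of different probes are not comparable as levels of their genes.

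The arrays were of similar brightness, with median raw intensities of 3405, 3460 and 2405 in the first channel and 2270, 2162 and 1448 in the second. The 3-month array carried a patch of bright local background over 940 of its gene spots (8.25%), against 46 spots at 1 month and none on the age array. Both spots of Nr0b2, Nr4a1, Nr5a1, Pgrmc1 and Pparg and 1 spot of Nr4a3 lay there at 3 months. Background correction on that array also compressed the ratios of dim probes. The 15 listed hepatocyte markers were all above local background in at least 1 channel of every array. So were 11368, 11285 and 11370 of 11394 gene spots on the 1-month, 3-month and age arrays, so this cannot test the tissue label. The hepatocyte markers had a median log2 ratio of 0.06 at 1 month, 0.04 at 3 months and −0.05 on the age array. Above 0 were 9, 9 and 7 of the 15 in the same order, beside 47.6%, 47.0% and 48.7% of all accessions. Single markers stood further from 0: albumin (Alb) was −0.15, −1.01 and −1.10, transferrin (Tf) 0.03, −0.29 and −0.99, and Serpina1, α1-antitrypsin, −0.71, −0.24 and −0.09. On the other side, Tat, tyrosine aminotransferase, was 0.16, 0.38 and 0.49.

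All 31 genes passed the filter on each array, which kept a spot if either channel exceeded the mean local background plus 2 of its SDs. Thra and Vdr passed it barely, with mean raw intensities within 1.24 times the local background, and no fold is read from them. At 1 month none of the 31 genes was at least 1.5-fold apart between the strains, against 2.60% of all accessions (148 of 5684). At 3 months 1 of 31 was, Pgrmc1, against 2.07% (117 of 5651). Between the ages of SHR 1 of 31 was, Nr1h3, against 7.47% (425 of 5686) in either direction and 2.06% in the direction of Nr1h3. The change of the strain ratio from 1 to 3 months reached 1.5-fold for 0 of 31, against 2.82% (159 of 5646). No member was 2-fold apart on any array, and neither was its change with age, where the shares of all accessions were 0.387% at 1 month, 0.106% at 3 months, 0.967% on the age array and 0.248% for the change. Counts of 0 or 1 in 31 are near these background shares and are no result about the receptor genes as a group.

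The median log2 ratio of the 31 genes was 0.0050 at 1 month, −0.0006 at 3 months and −0.03 on the age array, beside −0.01, −0.01 and −0.0086 over all accessions. The 11 metabolic receptors had medians of 0.0050, 0.01 and 0.03, and 6 of 11 were above 0 on each array. Over all accessions 47.6%, 47.0% and 48.7% were above 0. The 12 orphan receptors had medians of −0.0062, −0.04 and −0.19. The 3 steroid receptors had the lowest class medians, −0.21, −0.24 and −0.47, which are the values of 1 estrogen receptor each time. Nr3c1, also a steroid receptor but printed under an older name, is not in these medians and was 0.25, 0.35 and 0.23. The thyroid, retinoid and vitamin D class had medians of 0.12, 0.08 and 0.12, and 0.16, 0.05 and 0.17 over Rara and Thrb without the 2 probes near background. Of the 31 genes, 27 (87.1%) had the same sign on both strain arrays, which share no RNA according to the labels but have SHR in the same dye. Over all accessions 3928 of 5646 (69.6%) did.

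**Figure D1:**
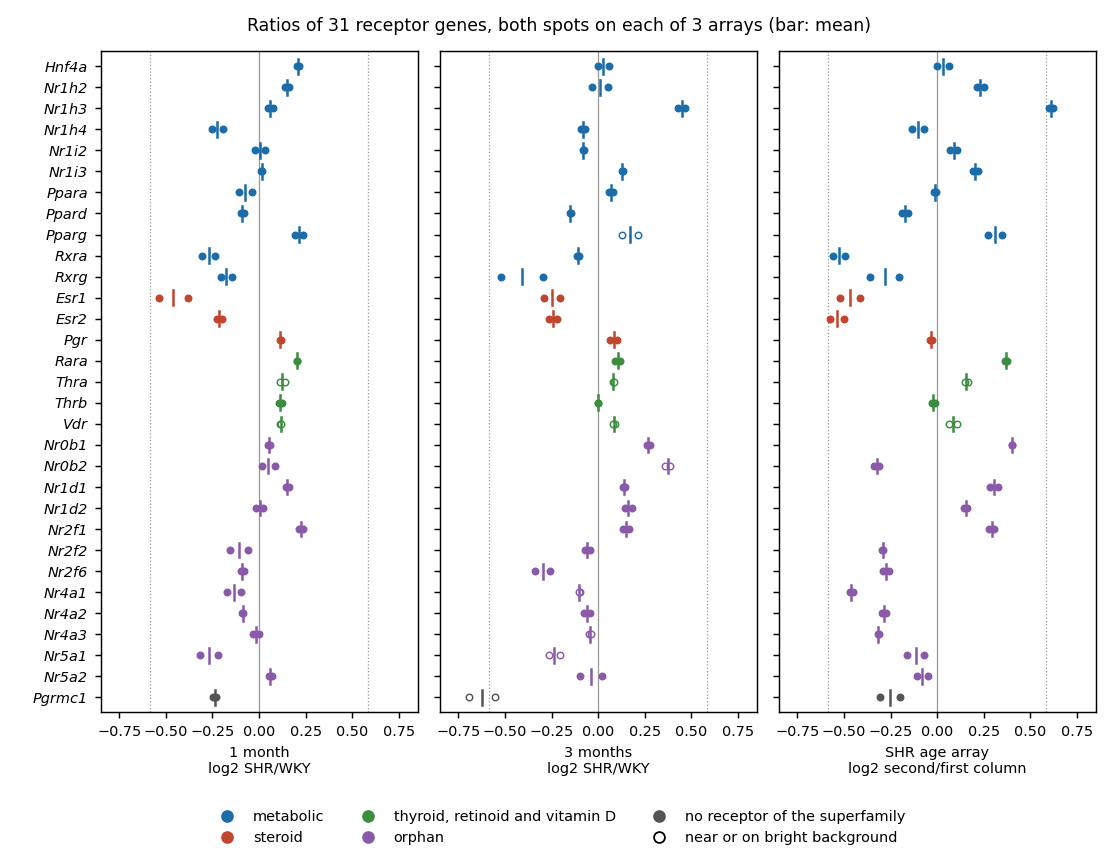
Log2 ratios of the 31 genes (rows) on the 3 arrays (panels), with 1 point for each of 2 spots and a bar at their mean; dotted lines mark 1.5-fold and open points mark probes near the background or on bright local background. Most genes lie within 0.3 of 0, Nr1h3 stands at 0.45 at 3 months and 0.61 on the age array, and Pgrmc1 stands at −0.62 at 3 months.

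Among the metabolic receptors, Nr1h3, which encodes the oxysterol receptor LXRα, stood furthest from the others. At 1 month its spots read 3522.0 and 4299.5 in WKY and 2520.1 and 3081.6 in SHR, a log2 ratio of 0.06 ± 0.02 (SD, 2 spots). At 3 months they read 4944.9 and 5810.7 in WKY and 4751.8 and 5524.4 in SHR, a log2 ratio of 0.45 ± 0.03. SHR is the dimmer channel in these raw values because the whole second channel was dimmer. Relative to the other probes, Nr1h3 was near the middle at 1 month, at the 65.1th percentile, and near the top at 3 months, at the 98.3th. The change from 1 to 3 months was 0.39, the highest of the 31 genes, and lay between 0.26 and 0.43 under the alternatives.

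Between the SHR ages Nr1h3 read 2522.2 and 2477.3 in the first column and 2389.4 and 2306.5 in the second, a log2 ratio of 0.61 ± 0.01 and 1.53-fold. That placed it at the 98.2th percentile of all accessions and also at the 98.2th among the 500 probes of nearest brightness. It stayed at least 1.5-fold in 8 of 11 alternatives and was 0.54 to 0.58 in the other 3. With the sign turned, as the dyes would have it, the value is −0.61. The other oxysterol receptor, Nr1h2 (LXRβ), had 0.15 at 1 month, 0.01 at 3 months and 0.23 on the age array.

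The promoter windows of 4 receptors are shown because these genes had the highest change of the strain ratio from 1 to 3 months: Nr1h3 at 0.39, Nr0b2 at 0.32, Esr1 at 0.21 and Nr0b1 at 0.21. With median centring in place of loess the order differed, with Ppara at 0.58 and Nr0b1 at 0.0014. Each runs from 250 bases before to 50 bases after the RefSeq start of its gene in build GRCr8, is written 5′ to 3′ on the gene's strand, and has half-sites AGGTCA and GGGTCA, searched on both strands, in capitals.
Nr1h3, chr3:97623180-97623479, minus strand: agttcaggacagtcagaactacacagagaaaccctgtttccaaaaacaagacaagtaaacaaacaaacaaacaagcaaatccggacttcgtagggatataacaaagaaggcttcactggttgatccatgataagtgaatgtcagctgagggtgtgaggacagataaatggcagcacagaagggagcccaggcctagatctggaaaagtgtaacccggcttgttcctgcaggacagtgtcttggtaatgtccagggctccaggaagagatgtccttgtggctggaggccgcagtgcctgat
Nr0b2, chr5:151062910-151063209, plus strand: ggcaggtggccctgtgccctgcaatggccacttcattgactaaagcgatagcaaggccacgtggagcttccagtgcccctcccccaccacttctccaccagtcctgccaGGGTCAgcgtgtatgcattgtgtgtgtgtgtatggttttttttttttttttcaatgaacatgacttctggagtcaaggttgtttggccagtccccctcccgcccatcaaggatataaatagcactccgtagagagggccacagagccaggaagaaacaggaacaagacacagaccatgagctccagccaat
Esr1, chr1:43641845-43642144, plus strand: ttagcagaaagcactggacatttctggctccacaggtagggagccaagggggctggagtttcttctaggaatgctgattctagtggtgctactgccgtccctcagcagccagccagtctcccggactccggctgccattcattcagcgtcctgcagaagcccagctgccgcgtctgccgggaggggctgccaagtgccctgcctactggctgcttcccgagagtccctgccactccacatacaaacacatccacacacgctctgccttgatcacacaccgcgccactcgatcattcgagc
Nr0b1, chrX:54707408-54707707, plus strand: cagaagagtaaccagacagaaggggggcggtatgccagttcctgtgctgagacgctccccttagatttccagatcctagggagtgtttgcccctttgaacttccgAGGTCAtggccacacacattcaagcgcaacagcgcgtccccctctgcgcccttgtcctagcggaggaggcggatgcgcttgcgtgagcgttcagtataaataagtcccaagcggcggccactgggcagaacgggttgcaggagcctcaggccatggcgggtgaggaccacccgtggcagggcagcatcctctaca

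The Nr0b2 window holds GGGTCA at position −141 from the start and the Nr0b1 window AGGTCA at −145, both on the gene's own strand, and the other windows shown hold neither spelling. Of 33469 windows in the RefSeq table, 16.2% hold AGGTCA and 13.8% GGGTCA. Of the 31 genes 27 have a window, of which 3 hold AGGTCA (Nr0b1, Nr1d2 and Nr5a2) and 6 hold GGGTCA (Nr0b2, Nr1d2, Nr5a2, Pparg, Rara and Thrb). Either spelling was in 7 of the 27 windows, beside 27.4% of all windows. The GC content of the windows shown was 48.0% for Nr1h3, 52.3% for Nr0b2, 59.7% for Esr1 and 60.0% for Nr0b1. A match of these letters is a description of the sequence and no measured binding site.

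Rxra and Rxrg encode retinoid X receptors, the partners with which many of the other receptors pair. Rxra read 1011.6 and 885.89 in WKY and 462.19 and 415.04 in SHR at 1 month, a log2 ratio of −0.27 ± 0.05, and was −0.11 ± 0.01 at 3 months. In the age comparison its spots read 764.21 and 742.59 in the first column and 276.15 and 254.78 in the second, a log2 ratio of −0.53 ± 0.05. Rxra was thus lower in the second channel on each array, and its age ratio lay at the 3.40th percentile of the 500 probes nearest in brightness. Its sign held under all 11 alternatives, with an age ratio between −0.84 and −0.49. Rxrg was −0.18 ± 0.04 at 1 month, −0.41 ± 0.16 at 3 months and −0.28 ± 0.11 on the age array. Its spots disagreed more than those of any other member at 3 months, at −0.30 and −0.52. Fitted without the bright background, its 3-month ratio was −0.58.

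The peroxisome proliferator-activated receptors bind fatty acids and their derivatives. Pparg, the adipogenic member, was 0.21 ± 0.03 at 1 month and 0.31 ± 0.06 on the age array. At 3 months it was 0.17 ± 0.06, on spots of bright background. Ppara, which drives fatty acid oxidation in the fasting liver, was −0.07 ± 0.05, 0.07 ± 0.02 and −0.01 ± 0.01 on the 1-month, 3-month and age arrays. Ppard was −0.09, −0.15 and −0.17. The Ppara values were within 2 pooled spot SDs of 0 on every array, but they depended on the processing. Under the alternatives they ranged from −0.50 to 0.11, −0.05 to 0.21 and −0.41 to 0.20.

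Hnf4a, a receptor that maintains hepatocyte identity, was 0.21 ± 0.01 at 1 month and among the 3 highest members there, but 0.03 ± 0.04 at 3 months and 0.03 ± 0.04 on the age array. Nr1h4, the bile acid receptor FXR, was −0.23 ± 0.04, −0.08 ± 0.01 and −0.10 ± 0.05. Its sign turned under median centring, to 0.44, 0.32 and 0.62, and at 3 months and on the age array also with loess per subgrid (0.07 and 0.0011) and the authors' values (0.06 and 0.0069). It was at the 19.0th percentile of probes of like brightness at 1 month. The drug-sensing receptors Nr1i2 (PXR) and Nr1i3 (CAR) were near 0 in the strain comparison at 1 month. Nr1i2 was 0.0050 ± 0.04 at 1 month, −0.08 ± 0.01 at 3 months and 0.09 ± 0.03 on the age array. Nr1i3 was 0.01, 0.13 and 0.20.

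**Figure D2:**
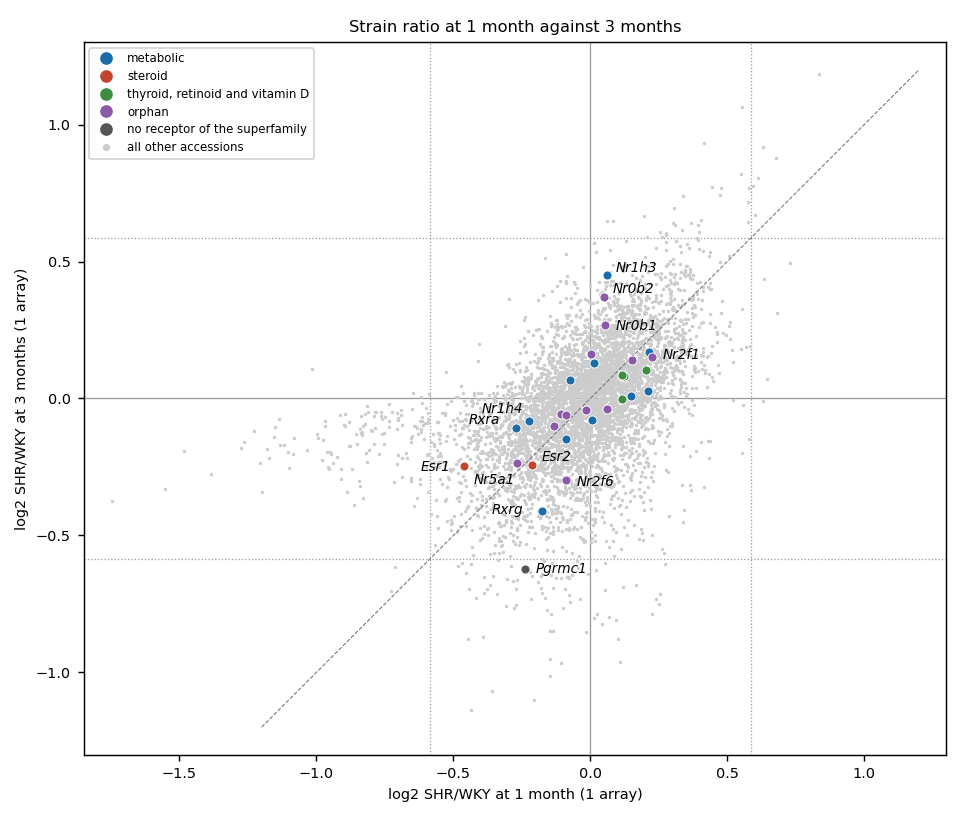
Log2 SHR/WKY at 1 month (x axis) against 3 months (y axis) for the 31 genes, coloured by class, and all other accessions in grey; dotted lines mark 1.5-fold and the dashed line equal ratios. Nr1h3, Nr0b2 and Nr0b1 lie above the dashed line near 0.05 at 1 month and at 0.45, 0.37 and 0.27 at 3 months, and the estrogen receptors lie in the lower left.

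Both estrogen receptors were lower in the second channel on each of the 3 arrays, whereas the progesterone receptor was near 0. Esr1, which encodes ERα, the main estrogen receptor of the liver, read 1046.3 and 1047.3 in WKY and 405.62 and 456.65 in SHR at 1 month. Its log2 ratio of −0.46 ± 0.11 was the lowest of the 31 genes there and lay at the 1.00th percentile of probes of like brightness. At 3 months it read 1318.4 and 1233.9 in WKY and 568.96 and 578.49 in SHR, a log2 ratio of −0.25 ± 0.06, so the ratio was nearer 0 by 0.21. In the age comparison Esr1 was −0.47 ± 0.07 but −0.22 with loess per subgrid. All 11 alternatives kept its sign on each array.

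Esr2, which encodes ERβ, was −0.21 ± 0.02 at 1 month and −0.24 ± 0.03 at 3 months. Between ages it read 2327.0 and 2304.8 in the first column and 916.85 and 956.51 in the second, a log2 ratio of −0.54 ± 0.05, the lowest of the 31 genes as second over first column and the highest with the sign turned. The 11 alternatives gave −0.70 to −0.50. Pgr, the progesterone receptor, was 0.11, 0.08 and −0.03, with its spots within 0.03 log2 (SD) on each array.

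Pgrmc1, a heme-binding protein of the endoplasmic reticulum, was the single gene of the 31 at least 1.5-fold apart between strains. At 3 months it read 2085.4 and 2561.5 in WKY and 874.30 and 997.86 in SHR, a log2 ratio of −0.62 ± 0.10, or 1.54-fold lower in SHR. Both spots lay on the bright patch, with local backgrounds of 250.03 in the first channel and 280.26 in the second. The alternatives that gave a value ranged from −1.12 to −0.55, at least 1.5-fold in 8 of 10, and the fit without bright background gives none. At 1 month, away from any patch, it was −0.24 ± 0.01, and on the age array −0.25 ± 0.07. The effect of the patch on the 3-month ratio beyond these values was not tested.

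Of the receptors for retinoic acid and thyroid hormone, Rara, the retinoic acid receptor α, was 0.20 at 1 month, with spots at 0.20 each, and 0.10 ± 0.02 at 3 months. Its age ratio was 0.37 ± 0.01, among the 3 highest members as second over first column. Thrb, the main thyroid hormone receptor of hepatocytes, was 0.11 ± 0.01 at 1 month, −0.0006 ± 0.0029 at 3 months and −0.02 ± 0.01 on the age array. Its spots agreed closely, but its values depended on the processing, with −0.25 to 0.40, −0.20 to 0.44 and −0.18 to 0.49 under the alternatives, whose highest values are the authors' own. The probes of Thra and of the vitamin D receptor Vdr were near background on every array. Thra read 51.75 and 47.79 in WKY and 50.74 and 50.12 in SHR at 1 month over local backgrounds of 45.59 and 47.72. Vdr read 49.55 and 56.08 in WKY and 49.81 and 53.28 in SHR over 47.70 and 48.52. On the other arrays Thra and Vdr read 43.74 to 59.96. These probes cannot show a difference at this signal, whatever the fitted ratio.

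Nr0b2 encodes SHP, a partner without a DNA-binding domain that is induced by bile acids and represses bile acid synthesis. It read 33808 and 34668 in WKY and 42803 and 47710 in SHR at 1 month, a log2 ratio of 0.05 ± 0.05 after loess. At 3 months it read 27525 and 28152 in WKY and 42168 and 45117 in SHR, a log2 ratio of 0.37 ± 0.02, at the 92.0th percentile of probes of like brightness. Its age ratio was −0.33 ± 0.02. This probe is among the brightest, and with median centring in place of loess the 3 values were 0.91, 1.01 and 0.48. The other alternatives that gave a value at 3 months gave 0.17 or more. Its 3-month spots also had a raised background in the WKY channel, 95.29 on average, which is small beside the signal.

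Nr0b1, which encodes DAX-1, the related partner known from adrenal and gonad, read 9920.2 and 10162 in WKY and 8041.3 and 8352.5 in SHR at 1 month, a log2 ratio of 0.05 ± 0.01. At 3 months it read 9361.1 and 8260.5 in WKY and 8384.6 and 7320.4 in SHR, a log2 ratio of 0.27 ± 0.01. Its age ratio was 0.40, with spots at 0.40 each, the second highest of the 31 genes as second over first column and the second lowest with the sign turned. Nr0b1 was thus higher on the 3-month than on the 1-month strain array by 0.21, about as far as Esr1 and less far than Nr1h3 and Nr0b2. Median centring gave changes of 0.0014 for Nr0b1, 0.10 for Nr0b2, 0.29 for Nr1h3 and 0.40 for Esr1. The order of these genes thus depended on the processing.

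Nr5a1 encodes steroidogenic factor 1, the regulator that defines steroid-producing cells of adrenal and gonad. Its probe was dim but above background at 1 month, at 263.61 and 244.79 in WKY and 135.59 and 123.04 in SHR over local backgrounds of 44.31 and 49.95. Its log2 ratio there was −0.27 ± 0.07, at the 49.0th percentile of probes of like brightness, so it stood at the middle of equally dim probes. Its age ratio was −0.12 ± 0.07. At 3 months 0 of 2 spots were above the bright background in SHR, and alternatives ranged from −2.01 to 0.31, so no difference is read. Of the 9 measured genes listed for adrenal and gonad, 2 were above 0 at 1 month, 3 at 3 months and 2 on the age array. That list holds Nr5a1 and also Nr0b1, which was 0.05, 0.27 and 0.40. Of the 7 without these receptor genes, 1 was above 0 at 1 month, 2 at 3 months and 1 on the age array. Over all accessions 47.6%, 47.0% and 48.7% were above 0. Cyp21a1, steroid 21-hydroxylase, was −0.42, −0.32 and −0.36, and Cyp19a1, aromatase, −0.13, −0.22 and −0.74, and Cyp11a1, the side-chain cleavage enzyme, −0.30, −0.26 and −0.44, while Cyp11b1, steroid 11β-hydroxylase, was −0.08, 0.16 and 0.36. Nr5a2 (LRH-1), the liver relative of Nr5a1 that supports bile acid synthesis, was 0.06 ± 0.01, −0.04 ± 0.08 and −0.08 ± 0.04.

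Nr1d1 and Nr1d2 encode REV-ERBα and REV-ERBβ, heme-binding repressors of the circadian clock whose level swings over the day. Nr1d1 was 0.15 ± 0.01 at 1 month, 0.14 ± 0.01 at 3 months and 0.30 ± 0.03 on the age array, and Nr1d2 0.0036, 0.16 and 0.15. The hour at which livers were taken is not given in the labels. In the RefSeq gene order of GRCr8, Nr1d1 overlaps Thra by 1061 bases on chromosome 10, with 5 protein-coding genes between Nr1d1 and Rara. Nr1d2 and Thrb lie on chromosome 15 with 1 gene between them. Nr1d1 and Rara were 0.30 and 0.37 on the age array, where Thra was near background, while Nr1d2 and Thrb were 0.15 and −0.02.

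The Nr4a genes are immediate-early receptors that respond quickly to hormones and stress. Nr4a1 was −0.13 ± 0.05, −0.10 and −0.46 ± 0.01 on the 1-month, 3-month and age arrays. Nr4a2 was −0.09, −0.06 ± 0.02 and −0.29 ± 0.01, and Nr4a3 −0.02 ± 0.02, −0.04 ± 0.01 and −0.32. The 3 genes were at −0.13 to −0.02 between strains and at −0.46 to −0.29 on the age array, where the first quartile of all accessions was −0.23. Median centring turned the Nr4a2 age ratio to 0.24. A second probe, named NOR-2 in the files and matched to Nr4a3 by accession, was −0.37 at 1 month, −0.06 at 3 months and −0.40 on the age array, so the 2 probes of Nr4a3 disagreed at 1 month.

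The Nr2f genes encode COUP transcription factors, mostly repressors. Nr2f1 was 0.23 ± 0.02 at 1 month, the highest of the 31 genes there, 0.15 ± 0.02 at 3 months and 0.29 ± 0.02 on the age array. Nr2f2 was −0.11 ± 0.07, −0.06 ± 0.02 and −0.29 ± 0.01. Nr2f6 was −0.09 ± 0.01, −0.30 ± 0.06 and −0.27 ± 0.02, so that at 3 months it was among the 3 lowest members. It moved to 0.0032 there and to 0.20 on the age array with median centring.

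**Figure D3:**
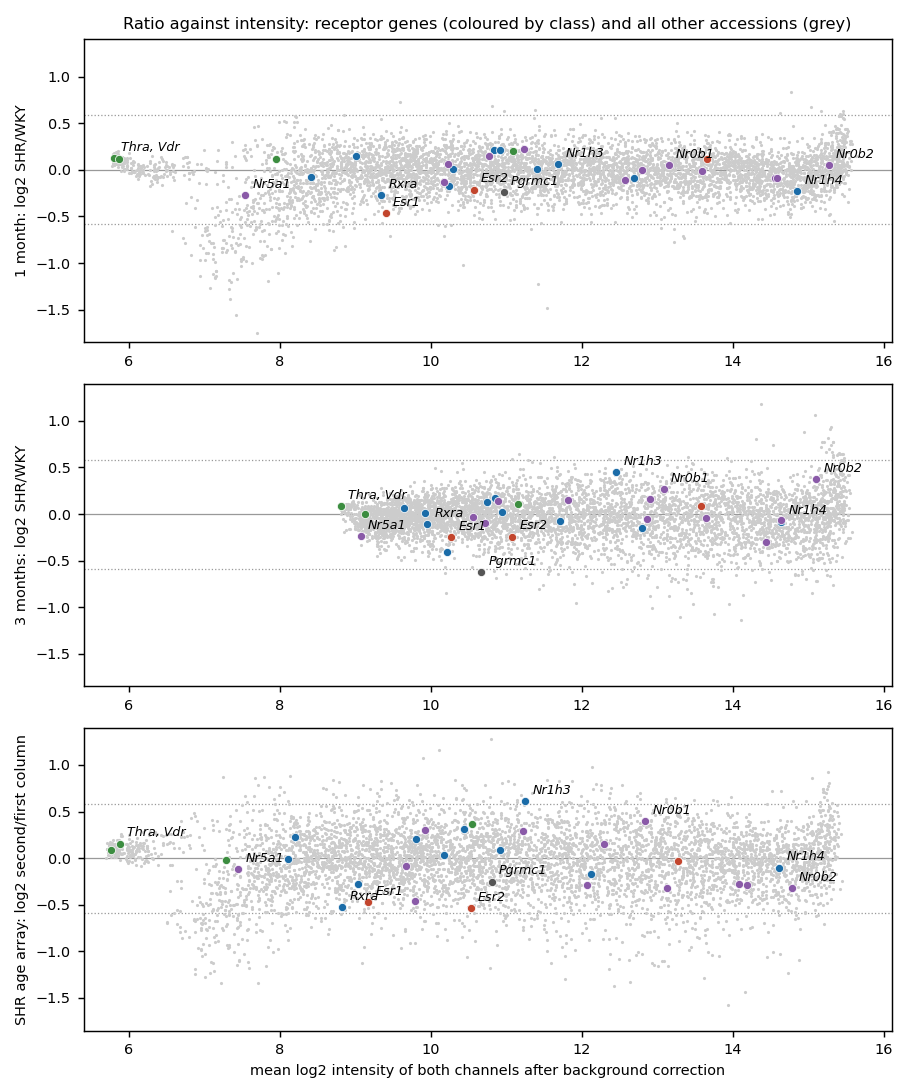
Log2 ratio (y axis) against mean log2 intensity (x axis) on the 3 arrays, with the 31 genes coloured by class and all other accessions in grey; dotted lines mark 1.5-fold. Thra and Vdr sit at the dim edge of each array, Nr0b2 sits at the bright edge near 15, and the 3-month array starts near 8.8 because of its background model.

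Receptors listed under older names in the files were found after the values had been seen. Nr3c1, the glucocorticoid receptor, printed as Grl, was 0.25 ± 0.03 at 1 month, 0.35 ± 0.01 at 3 months and 0.23 ± 0.05 on the age array, at the 92.0th, 96.0th and 80.5th percentiles of all accessions. Nr2c2, printed as Tr4, was −0.03, −0.02 and −0.06. The glucocorticoid receptor was thus above 0 on both strain arrays.

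The other genes of these pathways were described from lists of coregulators and of known targets. Of 15 coregulators 7 were measured, with a median of 0.12 at 1 month, 0.03 at 3 months and 0.02 on the age array. None was 1.5-fold apart on an array. Ep300, a histone acetyltransferase that coactivates many receptors, was 0.23 at 1 month and −0.50 at 3 months, and its change of −0.72 was the single one past 1.5-fold, against 1.12% of all accessions in that direction. Ncoa6 was 0.41, 0.11 and 0.36, Crebbp, another acetyltransferase, 0.04, −0.16 and 0.30, and Ppargc1a, the inducible coactivator PGC-1α, was 0.12, 0.27 and 0.14.

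Of 10 listed targets of the oxysterol receptors 6 were measured, with medians of −0.17, −0.12 and −0.18, and none was 1.5-fold apart. Of the 6, 1 was above 0 at 1 month, 3 at 3 months and 2 on the age array. Over all accessions 47.6%, 47.0% and 48.7% were above 0. The change of the strain ratio of the 6 targets had a median of 0.12, with 5 of 6 above 0. Over all accessions the change had a median of 0.0077, with 51.8% above 0. For the HNF4A targets it was 0.11, with 8 of 10 above 0. Abcg1, a cholesterol efflux transporter, was −0.56, −0.47 and −0.17, and Scd, stearoyl-CoA desaturase, was −0.53, −0.37 and −0.38. Abcg5, a sterol transporter, was −0.14, −0.25 and −0.24, and Fasn, fatty acid synthase, was −0.19, 0.02 and −0.18. Abcg8 was above 0 on each array, at 0.0051, 0.06 and 0.15. Cyp7a1, the rate-limiting enzyme of bile acid synthesis, was −0.12, 0.05 and 0.01.

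Of 30 listed targets of the peroxisome proliferator-activated receptors 22 were measured, with medians of 0.02, −0.08 and 0.04. One of them was 1.5-fold apart, Ucp2, an uncoupling protein, at −1.03 on the age array, where 5.42% of all accessions were that far in the lower direction. Fgf21, a fasting hormone, was 0.21, 0.33 and 0.50. Ucp3, another uncoupling protein, was −0.34, −0.40 and −0.46.

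Of 10 bile acid receptor targets 7 were measured, with medians of −0.10, 0.05 and 0.01. Cyp7a1 is counted on this list as well as among the oxysterol receptor targets. The list was not split by whether the receptor raises or lowers a gene, so its medians give no direction of receptor activity. Fetub, fetuin B, was 0.47 at 1 month, 0.74 at 3 months and 0.25 on the age array. It was 1 of 7 past 1.5-fold at 3 months, where 0.584% of all accessions were higher by that much. Abcb4, a phospholipid transporter of the bile canaliculus, was −0.14, −0.30 and −0.43, and Slc10a1, the bile acid uptake transporter, was −0.12, −0.22 and −0.38. Fgf19, as the file names a bile acid-induced hormone, was 0.22, 0.05 and 0.42. Abcb11, the bile salt export pump, was 0.14, 0.27 and 0.29, so members of the list lay on both sides of 0.

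Of 21 targets of the drug-sensing receptors 14 were measured, with medians of 0.03, 0.06 and −0.01. These medians include the dim probes of Abcc3 and Cyp3a23-3a1, at mean log2 intensities of 6.89 and 6.96. No fold is read from those 2 probes. Cyp2c7, a cytochrome P450, was lower at −0.71, −0.61 and −0.76, and was the single one of the 14 past 1.5-fold on each array. At 1 month 2.41%, at 3 months 1.49% and on the age array 5.42% of all accessions were lower by 1.5-fold. Gsta2, a glutathione transferase, was 0.05, −0.32 and −0.55. Of 13 listed HNF4A targets 10 were measured, with medians of −0.13, 0.04 and −0.12, and Serpina1 was −0.71 at 1 month and −0.24 at 3 months. Apoa2, an apolipoprotein, was −0.28, −0.23 and −0.33.

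Of 13 glucocorticoid targets 9 were measured, with medians of −0.07, −0.02 and 0.21. Tat, tyrosine aminotransferase, was 0.16, 0.38 and 0.49, and Dusp1, a phosphatase, −0.27, 0.10 and 0.26. Tdo2, tryptophan dioxygenase, was −0.07, −0.07 and 0.40. Tpp2, a peptidase with a dim probe whose place on the list is not certain, was −0.61, −0.10 and −0.69. Of 13 genes of retinoid handling 8 were measured, with medians of −0.05, −0.04 and 0.14, and Aldh1a1, a retinaldehyde dehydrogenase, was −0.40 at 1 month and 0.20 at 3 months. Its change of 0.60 was the single one past 1.5-fold in that list, against 1.70% of all accessions in that direction. Tgm2, a transglutaminase, was −0.36, −0.40 and −0.01, Rbp2, a retinol-binding protein, 0.16, 0.34 and 0.22, and Cyp26a1, which breaks down retinoic acid, 0.14, 0.32 and 0.32.

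The 4 thyroid hormone targets had medians of −0.10, −0.11 and −0.07, with Thrsp, a lipogenic protein, at −0.26, −0.25 and −0.31. Of 10 clock genes 7 were measured, with medians of −0.05, −0.12 and 0.0044. Per3 was −0.32, −0.56 and 0.0044, Cry2 −0.13, −0.28 and −0.50, Tef −0.03, −0.12 and −0.38, and Clock −0.15, 0.30 and 0.09. Bmal1, a direct target of REV-ERB repression, was −0.05, −0.16 and 0.08. Of 4 genes of vitamin D metabolism 2 passed the filter, Gc, the vitamin D binding protein, at −0.11, 0.14 and 0.11, and Cyp27b1, whose probe was as dim as that of Vdr and from which no fold is read.

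**Figure D4:**
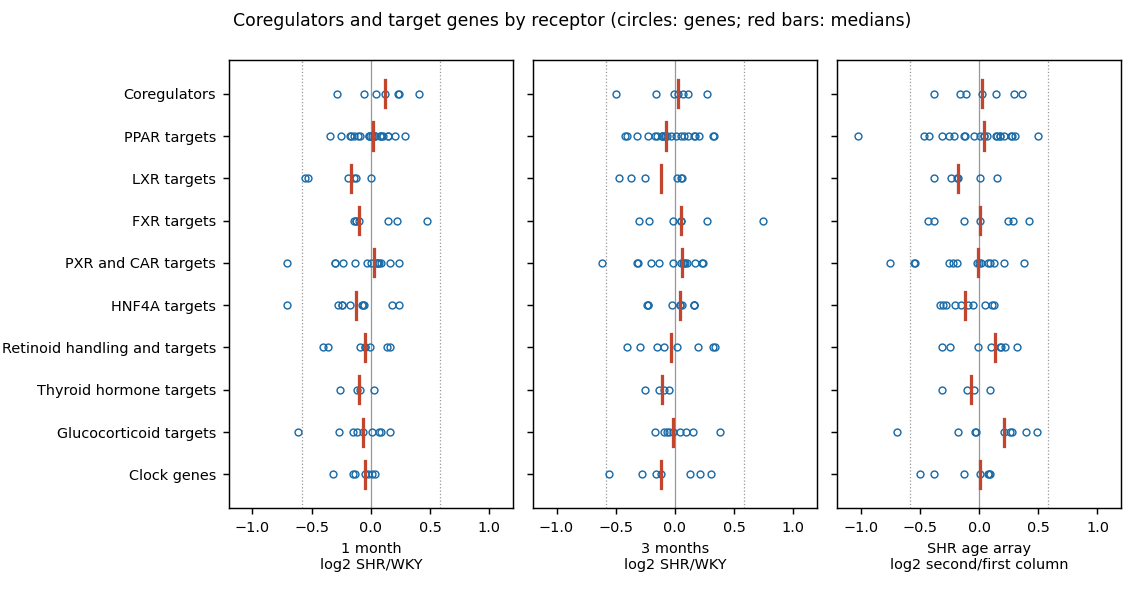
Log2 ratios of the measured genes of each list (circles) and their median (red bar) on the 3 arrays, with dotted lines at 1.5-fold. Medians of the lists plotted lie between −0.18 and 0.21, and single genes such as Ucp2 at −1.03 and Fetub at 0.74 stand apart.

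Markers of other liver cells are given because receptors differ between cell types, and in bulk tissue fewer cells of a type and less RNA per cell cannot be told apart. The 11 stellate cell and matrix markers had medians of −0.28 at 1 month, −0.20 at 3 months and −0.28 on the age array, with 9, 10 and 10 of 11 below 0. Their range was −0.46 to 0.18, −0.49 to 0.02 and −0.60 to 0.18, and Des, desmin, was −0.46, −0.41 and −0.60. Over all accessions 2980 of 5684, 2996 of 5651 and 2916 of 5686 were below 0. The part of these cells in the ratios of the receptor genes was not tested. The 3 measured of 8 Kupffer cell markers had medians of −0.11, −0.15 and 0.19. Of 9 lymphocyte and NK cell markers 6 were measured at 1 month, with a median of −0.20, and −0.08 over 5 at 3 months and −0.17 on the age array. The 2 measured of 6 bile duct markers had medians of −0.03, −0.04 and −0.20, and the 4 measured of 6 erythroid markers −0.11, −0.01 and −0.0062. Among the lymphocyte and erythroid markers, Prf1 and Hba-a1 had dim probes, at mean log2 intensities of 5.81 and 6.86. No fold is read from those 2 probes. Kdr, the single measured endothelial marker of 7, was 0.09, 0.13 and 0.07.

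**Figure D5:**
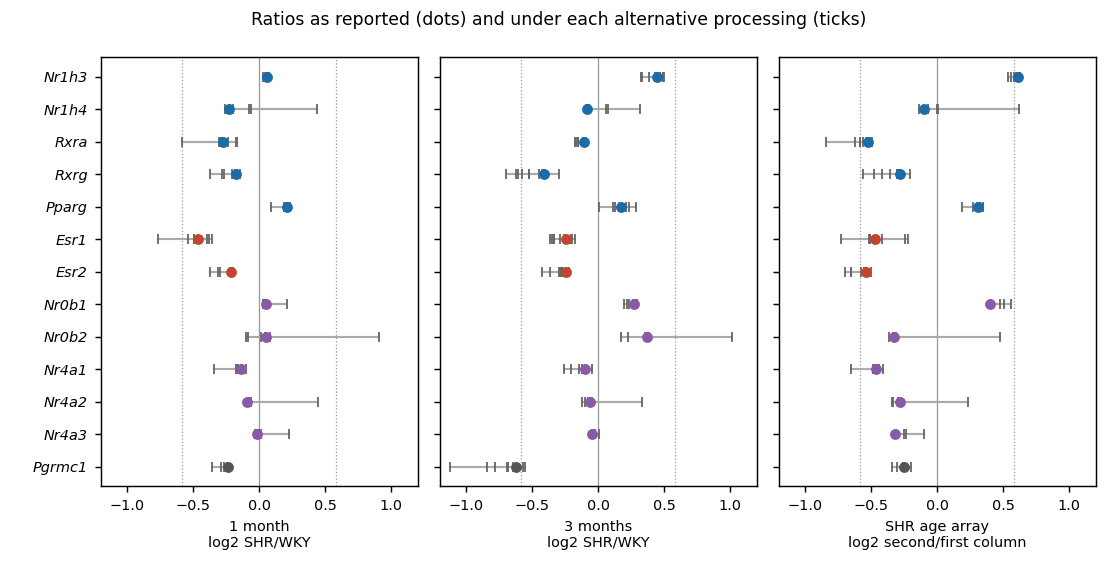
Log2 ratios of 13 members as reported (dots) and under each alternative processing (ticks, joined by a line) on the 3 arrays, with dotted lines at 1.5-fold. Nr1h3 stays between 0.54 and 0.63 on the age array, Nr0b2 spans −0.10 to 0.91 at 1 month, and Pgrmc1 spans −1.12 to −0.55 at 3 months.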

How the data were processed

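Per the file headers, each deposited scanner file holds, for both channels of each spot, a raw, a net and a local background intensity with the background's SD, and a ratio of the net values. The deposited ratio was not used. A deposited series table holds log2 values by the authors with no stated base, centring or direction. Set against the net intensities they matched log2 of the second over the first column, with a median absolute difference of 0.0016, 0.0032 and 0.0035 on the 3 arrays and medians of −0.0050, 0.0050 and 0.0008. The scanner software is not named in the labels or headers.

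The raw intensities were processed anew with limma 3.58.1 in R 4.3.3: normexp background correction with offset 50, then loess per array with span 0.3 and empty spots at weight 0. Before loess the median log2 ratios were −0.51, −0.36 and −0.65. After loess every ratio is relative to probes of like intensity on the same array. Each array has 12288 spots. Other steps used Python 3.11.15, numpy 2.4.6 and pandas 2.3.3, with plots from matplotlib 3.10.9. The steps were tested on simulated data. The number of arrays, 1 per comparison, limits the precision.

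Members and lists were chosen with earlier results of these data known. Every member is named. Those described in full were at least 1.5-fold apart, among the 3 highest or lowest in a comparison, or receptors of known hepatocyte role. From each list up to 4 genes with the largest ratios on an array were named. Ppargc1a, Cyp7a1, Abcb11, Abcg8, Dusp1, Bmal1 and Cyp11b1 were added after their values were seen. Where a listed gene had more than 1 probe, the brightest was taken. All 31 members kept the symbol of the file in RefSeq, 21 by accession and 10 by symbol.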

Additional observations from a re-analysis of the deposited data

Results flagged for a closer look

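Of the 31 genes, 4 had opposite signs on the 1-month and 3-month strain arrays, where each age has a single array, and this difference was left without a test. The change on the log2 scale was 0.14 for Ppara, from −0.07 to 0.07, and −0.085 for Nr1i2, from 0.0050 to −0.080. It was −0.097 for Nr5a2, from 0.06 to −0.04, and −0.12 for Thrb, from 0.11 to −0.0006. Each of these changes is smaller than 2 pooled spot SDs of a difference between arrays, 0.145. Under the alternatives the changes ranged from −0.05 to 0.58 for Ppara and −0.20 to 0.07 for Nr1i2. They ranged from −0.15 to 0.05 for Nr5a2 and −0.30 to 0.55 for Thrb.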

How the results depend on the processing

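Over 11 alternatives of background, normalization, filter, spots and source, 18 of 31 genes kept their sign at 1 month, 15 at 3 months, 19 on the age array and 12 in the change, and the cause of the others was not tested. The count of genes at least 1.5-fold apart was 0, 1, 1 and 0 in the same order. Plain subtraction gave 3 at 3 months, 2 on the age array and 2 in the change. Of all accessions it placed 103 higher and 293 lower of 5643, 210 and 395 of 5685, and 66 and 177 of 5638 there. An offset of 0 gave 1 at 1 month and 2 on the age array, beside 42 higher and 168 lower of 5684, and 204 and 392 of 5686. Median centring gave 3, 2 and 7 on the arrays. Over all accessions it gave 596 higher and 422 lower of 5684, 434 and 133 of 5651, and 876 and 573 of 5686. The authors' values gave 3 at 3 months, 2 on the age array and 2 in the change. Over all accessions they gave 156 higher and 231 lower of 5637, 225 and 383 of 5667, and 97 and 128 of 5624. The 2 on the age array were Rxra at −0.62 and Esr2 at −0.70, with Nr1h3 at 0.58. Loess per subgrid gave 1 there, Esr2 at −0.655, with Nr1h3 at 0.54. The first spot alone and the fit without bright background each gave 0 at 3 months, the latter without a value for 5 genes. Over all accessions these 2 gave 33 higher and 93 lower of 5637, and 43 and 199 of 5266. The median of all 31 was −0.062 at 1 month with loess per subgrid, 0.059 at 3 months with the authors' values and 0.034 on the age array with the sign turned, where Nr1h3 is −0.61.

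Class medians that moved by more than the pooled spot SD were as follows, with arrays in the order 1 month, 3 months, age. Median centring gave −0.060, −0.053 and −0.12 for metabolic, −0.37, −0.36 and −0.65 for steroid and 0.32, 0.43 and 0.44 for thyroid, retinoid and vitamin D receptors, with a change of 0.022 for the last. For orphan receptors it gave 0.12 at 1 month, 0.16 on the age array and −0.048 in the change. Loess per subgrid gave −0.30, −0.17 and −0.22 for steroid and 0.059, 0.029 and 0.058 for thyroid receptors, and −0.071 for orphan receptors at 1 month. The authors' values gave −0.31 at 1 month and −0.25 on the age array for steroid, 0.20 at 3 months, 0.28 on the age array and 0.079 in the change for thyroid, and −0.071 and 0.0073 at 1 and 3 months for orphan receptors. No background correction gave 0.071 for orphan receptors at 3 months, 0.18 for thyroid receptors on the age array and 0.073 for the change of metabolic receptors. For thyroid receptors at 1 month, on the age array and in the change, plain subtraction gave 0.26, 0.29 and −0.14, and an offset of 0 gave 0.30, 0.27 and −0.26. The fit without bright background gave 0.13 for thyroid receptors at 3 months and 0.033 for the change of metabolic receptors. With the sign turned, the age medians were −0.030, 0.47, −0.12 and 0.19 for metabolic, steroid, thyroid and orphan receptors.

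No paired analysis was possible because each comparison rests on 1 array. Signal over background limits Thra, Vdr and, at 3 months, Nr5a1.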
